A study of Arabidopsis thaliana with 12 samples.

Results

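The NAC genes are a large, plant-specific family of transcription factors that share a DNA-binding domain at the start of the protein. Several are held in cell membranes and are released to the nucleus under stress. Others drive or delay leaf senescence, shape vascular tissue, or adjust the levels and signalling of salicylic acid, abscisic acid and jasmonate. The 58 members described here are a given list of NAC loci, taken by gene identifier from the 34262 genes of the count table. All 58 had counts in at least 1 library, and 56 passed the filter on low counts. The other two, NAC025 and NAC060, had 0 to 12 and 0 to 8 counts per library.

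RNA was sequenced from rosette leaves of 3-week-old, untreated Arabidopsis plants in the Col-0 background, grown in soil at 22 °C under 16 h of light and 8 h of dark. Col-0 plants were compared with the ka120 mutant and with 2 double mutants, ka120 pad4 and ka120 ndr1, at 3 libraries per genotype. All 3 mutant groups carry ka120, and the pad4 and ndr1 single mutants were not analysed here. KA120 is a nuclear transport receptor that the study's title places as a negative regulator of effector-triggered immunity. PAD4 and NDR1 are needed for immune signalling from different classes of receptor. Labels name the genotypes, with the mutant alleles not given in the sources used here. Whether the libraries of a group came from separate plants is not said, and p-values then measure only how these libraries scatter, which may be technical.

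Library totals ran from 68436911 to 85884840 counts. Pearson correlations of log2 CPM between libraries, across genes, were 0.976 to 0.983 within a genotype and 0.903 to 0.978 between genotypes. NDR1 transcript stood at 0 to 0.166 CPM (counts scaled to library size) in ka120 ndr1, against 4.79 to 5.63 in Col-0. PAD4 transcript stood at 7.73 to 19.1 CPM in ka120 pad4, below the 54.6 to 107 CPM of ka120 but above the 4.6 to 5.54 CPM of Col-0, so its level does not by itself check the pad4 label. The leaf markers, led by the Rubisco small subunit gene RBCS1A, summed to 57500 to 61200 CPM in Col-0 and 30200 to 34500 in ka120. Of these, 4 of 4 were lower in ka120, against 27.0% of all genes tested. Markers of other organs were scarce in all groups: root markers summed to at most 1.7 CPM and floral organ markers to at most 7.52 CPM. The 2 root markers tested and 2 of 3 floral markers were nevertheless higher in ka120, against 28.0% of all genes tested. All Col-0 libraries of root marker WOX5 lay below the low-count filter's cutoff of 0.133 CPM, so WOX5 passed through mutant libraries. The root list summed to 0.152 to 0.369 CPM in Col-0 and 0.82 to 1.35 CPM in ka120. The floral list summed to 1.3 to 2.76 CPM in Col-0 and 3.58 to 7.52 CPM in ka120. The part of the lower leaf markers and the higher root and floral markers in the results for NAC genes was not tested.

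Promoter sequences are shown for 3 members that had almost no counts in Col-0 and high counts in ka120. NAC090 and NAC061 encode closely related NAC factors, and the 250 bases before their starts share long identical runs. JUB1 had the highest fold change of the members with counts in Col-0. The sequences were read from the RefSeq TAIR10.1 genome, 5′ to 3′ on the gene's strand, which is the minus strand for all 3. NAC090 lies at chr5:7410103-7410352, NAC061 at chr3:16024520-16024769 and JUB1 at chr2:17882637-17882886. For NAC090 and NAC061, capitals mark the 6 runs of at least 8 identical bases in the alignment of both windows. For JUB1, capitals mark its 2 copies of the W-box core TTGAC, the motif that WRKY factors bind, 96 and 79 bases before the start.
NAC090 promoter: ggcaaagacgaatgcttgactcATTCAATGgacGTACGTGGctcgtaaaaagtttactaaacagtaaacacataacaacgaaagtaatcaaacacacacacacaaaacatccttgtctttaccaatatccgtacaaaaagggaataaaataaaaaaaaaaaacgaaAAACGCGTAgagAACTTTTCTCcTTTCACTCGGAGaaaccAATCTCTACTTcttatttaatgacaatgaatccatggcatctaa
NAC061 promoter: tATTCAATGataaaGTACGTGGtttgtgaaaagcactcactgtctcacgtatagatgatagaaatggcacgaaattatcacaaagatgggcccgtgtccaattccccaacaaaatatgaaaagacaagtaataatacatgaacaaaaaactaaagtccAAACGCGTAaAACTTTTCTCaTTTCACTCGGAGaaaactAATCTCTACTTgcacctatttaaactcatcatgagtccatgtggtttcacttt
JUB1 promoter: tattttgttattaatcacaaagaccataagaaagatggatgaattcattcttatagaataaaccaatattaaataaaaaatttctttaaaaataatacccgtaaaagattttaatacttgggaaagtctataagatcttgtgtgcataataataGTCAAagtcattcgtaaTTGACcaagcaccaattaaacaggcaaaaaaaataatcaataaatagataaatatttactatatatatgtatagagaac

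Of 220 aligned bases of the NAC090 and NAC061 windows, 171 (77.7%) were identical. Their longest shared word, on the same strand, had 15 bases. That ranked 2 among the 1653 pairs of member windows, whose median was 9, and NAC080 with NAC100 ranked 1 with 31 bases. The longest word starts 61 bases before the NAC090 start and 71 before the NAC061 start.

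5 short motifs were searched on both strands of the 250-base windows, and matches are descriptions only. The W-box core TTGAC stood in 9 of the 30 members called higher in ka120 (30%) and in 11 of the 28 others (39.3%), against 44.9% of 27443 protein-coding genes. The TGA core TGACG, which shares the letters TGAC with the W-box core, stood in 20% of the 30, 14.3% of the others and 18.6% of all. The G-box CACGTG stood in 3.33% of the 30, 21.4% of the others and 6.49% of all. The mitochondrial dysfunction motif, to which NAC013 binds, stood in the windows of NAC017, NAC044 and NAC045, and in 1.75% of all. The CGCG box ACGCGT, bound by calmodulin-regulated CAMTA factors and searched after the sequences had been seen, stood in NAC061, NAC090 and NAC103, 3 of the 30, in 0 of the 28 others, and in 1.67% of all. A window without a match says only that these letters are not in it.

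The microRNA miR164 cuts the transcripts of several NAC genes, and its mature forms and their sites in coding sequence are shown because 4 members carry such a site. Capitals mark the seed (bases 2 to 8) of the microRNA. In the sites, written as the DNA of the gene's strand, capitals mark mismatches to miR164a. The sites lie at chr1:20947142-20947162 on the minus strand for NAC1, chr5:2436958-2436978 on the plus strand for NAC080, chr5:24701687-24701707 on the minus strand for NAC100, and chr5:15858797-15858817 on the minus strand for ORE1 in TAIR10.1.
miR164a and miR164b-5p: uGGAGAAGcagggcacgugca
miR164c-5p: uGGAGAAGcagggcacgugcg
NAC1 site: AgcacgtAccctgcttctcca
NAC080 site: tTTacgtgccctgcttctcca
NAC100 site: tCTacgtgccctgcttctcca
ORE1 site: CTcacgtgAcctgcttctccG

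NAC1, NAC080 and NAC100 had 2 mismatches each and ORE1 had 4. ORS1, the closest relative of ORE1, had 6, and the best match of each other member had 7 to 10. NAC1 and NAC080 were called higher in ka120, while ORE1 and NAC100 were not called. The miR164a, b and c loci had 3, 117 and 0 counts over all 12 libraries, which says nothing of the mature microRNAs, since these libraries were made from mRNA.

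Summed over the 58 members, NAC transcripts were more abundant in ka120 leaves than in wild type. The CPM of the 58 members, scaled to the effective library size, summed to 639 ± 25.8 (SD, n = 3) in Col-0 and to 1110 ± 75.7 in ka120, with 904 ± 60.9 for ka120 pad4 and 973 ± 84 for ka120 ndr1. In edgeR's quasi-likelihood test, with Benjamini-Hochberg adjustment over all 22351 genes tested and a call at an adjusted p below 0.05, 36 of the 56 members (64.3%) differed between ka120 and Col-0. The background in this comparison was high, at 54.9% of all genes. The libraries of both groups did not overlap for 34 members with higher values in ka120 (background 32.3% of all genes) and 6 with lower values (31.0%). By direction of the calls, 30 members were higher (53.6%, against 28.0% of all genes) and 6 were lower (10.7%, against 27.0% of all genes). The list of members was chosen with earlier results of these data known, and the part of that choice in these shares was not tested. Of 20 tested NAC loci outside the list, 20% were higher and 5% were lower. The median log2 fold change was 0.70 over the members and 0.02 over all genes tested. It was 0.67 with the 3 members that had 0 counts in Col-0 set at their lower bound. These 3, NAC005, NAC038 and NAC071, would not have passed the filter on low counts without the ka120 libraries, so they were bound to be higher there than in Col-0 and lend the count no support. Without them, 28 members were higher and the median was 0.57. JUB1 and NAC004 likewise had no Col-0 library at the filter's cutoff of 0.133 CPM and passed it through mutant libraries. Among members with a Col-0 library at that cutoff, 26 were called higher in ka120. A change of at least 2-fold was called for 23 members, and for 18.2% of all genes. The 6 lower calls were the less settled ones: there were 2 without the filter on low counts, 3 with only the Col-0 and ka120 libraries in the fit, 3 without Col-0 replicate 1 or 3, and 2 without Col-0 replicate 2 or ka120 replicate 1 or 3.

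**Figure D1:**
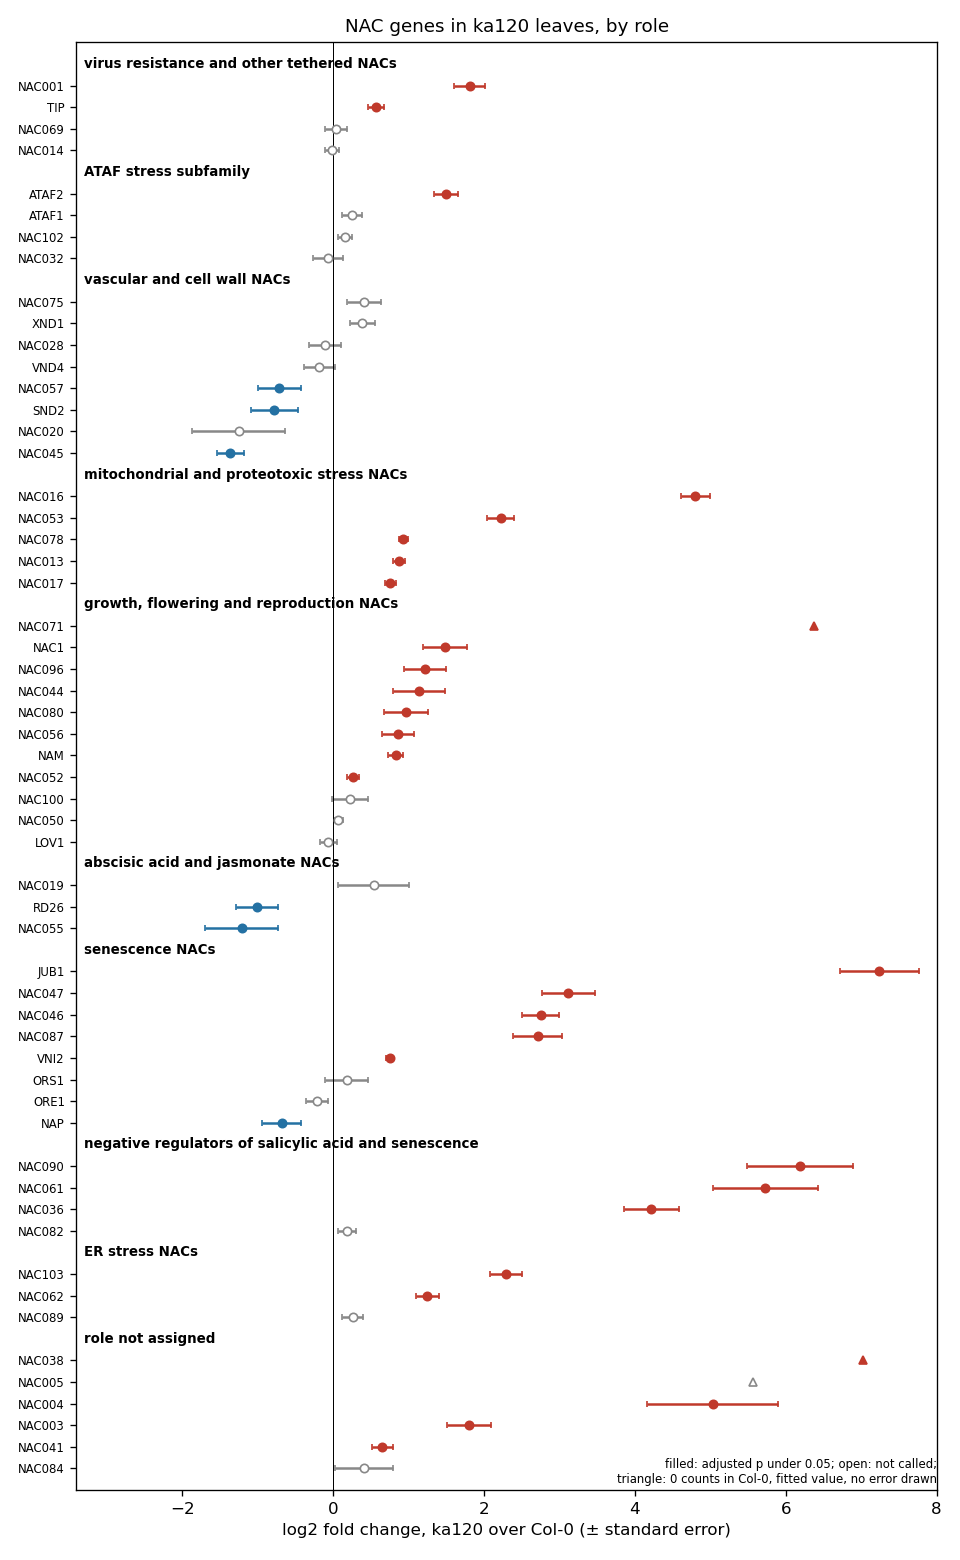
Log2 fold change of the 56 tested NAC genes in ka120 over Col-0, grouped by role, with the standard error as the bar. Filled points passed an adjusted p of 0.05 (red higher, blue lower), open points did not, and triangles without bars are genes with 0 counts in Col-0; 30 points are filled on the right of 0 and 6 on the left.

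Per kilobase of exon, VNI2 was the most abundant member in Col-0 (74.8 ± 1.92 CPM per kb) and in ka120 (126 ± 1.88). NAC078 followed in Col-0 at 29.5 ± 0.324 CPM per kb. NAC102 at 24.7 ± 2.11 and ATAF1 at 23 ± 2.61 CPM per kb came next in Col-0, and their difference was within their spread. NAC036, a factor whose overexpression makes small rosettes, moved from rank 24 in Col-0 (3.43 ± 0.423 CPM per kb) to rank 2 in ka120 (64.1 ± 15.1). Its mean in ka120 lay above that of NAC078 (56.4 ± 2.38) by less than its own SD.

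Of the 4 members grouped here as negative regulators of salicylic acid responses or leaf senescence, 3 rose in ka120 (75%, against 28.0% of all genes). Their folds were some of the largest among the members. Shares of role groups and lists rest on few genes and are given as descriptions. Each member sits in a single group, so the shares depend on that choice. JUB1, VNI2 and NAC017, also described below as delaying ageing or senescence, are counted in other groups. NAC090 (AT5G22380), a repressor of salicylic acid responses in ageing leaves, stood at 0.0814, 0.0843 and 0.17 CPM in Col-0, at 9.61, 10.9 and 4.98 in ka120, at 1.94, 7.88 and 3.2 in ka120 pad4 and at 4.69, 11.4 and 5.55 in ka120 ndr1. NAC061 (AT3G44350), its close relative, stood at 0.0651, 0.219 and 0.241 CPM in Col-0, at 11.1, 11.5 and 5.79 in ka120, at 1.42, 7.38 and 2.21 in ka120 pad4 and at 6.25, 9.82 and 4.95 in ka120 ndr1. NAC036 (AT2G17040) stood at 4.88, 3.88 and 4.79 CPM in Col-0, at 91, 100 and 61.9 in ka120, at 39.1, 96.4 and 46.7 in ka120 pad4 and at 60.2, 105 and 61.9 in ka120 ndr1. All 9 mutant libraries lay above all Col-0 libraries for these 3 genes. Within each double mutant, replicate 2 was the highest library for all 3, and within ka120, replicate 3 was the lowest.

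Against Col-0, the log2 fold change in ka120 was 6.19 ± 0.70 for NAC090 (SE, adjusted p = 1.11e-05). It was 5.73 ± 0.70 for NAC061 (adjusted p = 2.34e-05) and 4.22 ± 0.37 for NAC036 (adjusted p = 1.39e-06). The calls held in both double mutants against Col-0, with log2 fold changes of 3.75 to 5.23 in ka120 pad4 and 4.06 to 5.95 in ka120 ndr1. Against ka120 itself, none of the 3 was called in either double mutant. The nearest was NAC061 in ka120 pad4, at -1.36 ± 0.51 (adjusted p = 0.0867). NAC082, which acts in nucleolar stress and was described with NAC090 and NAC017 as a brake on senescence, had a log2 fold change of 0.18 ± 0.12 in ka120 (adjusted p = 0.229).

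**Figure D2:**
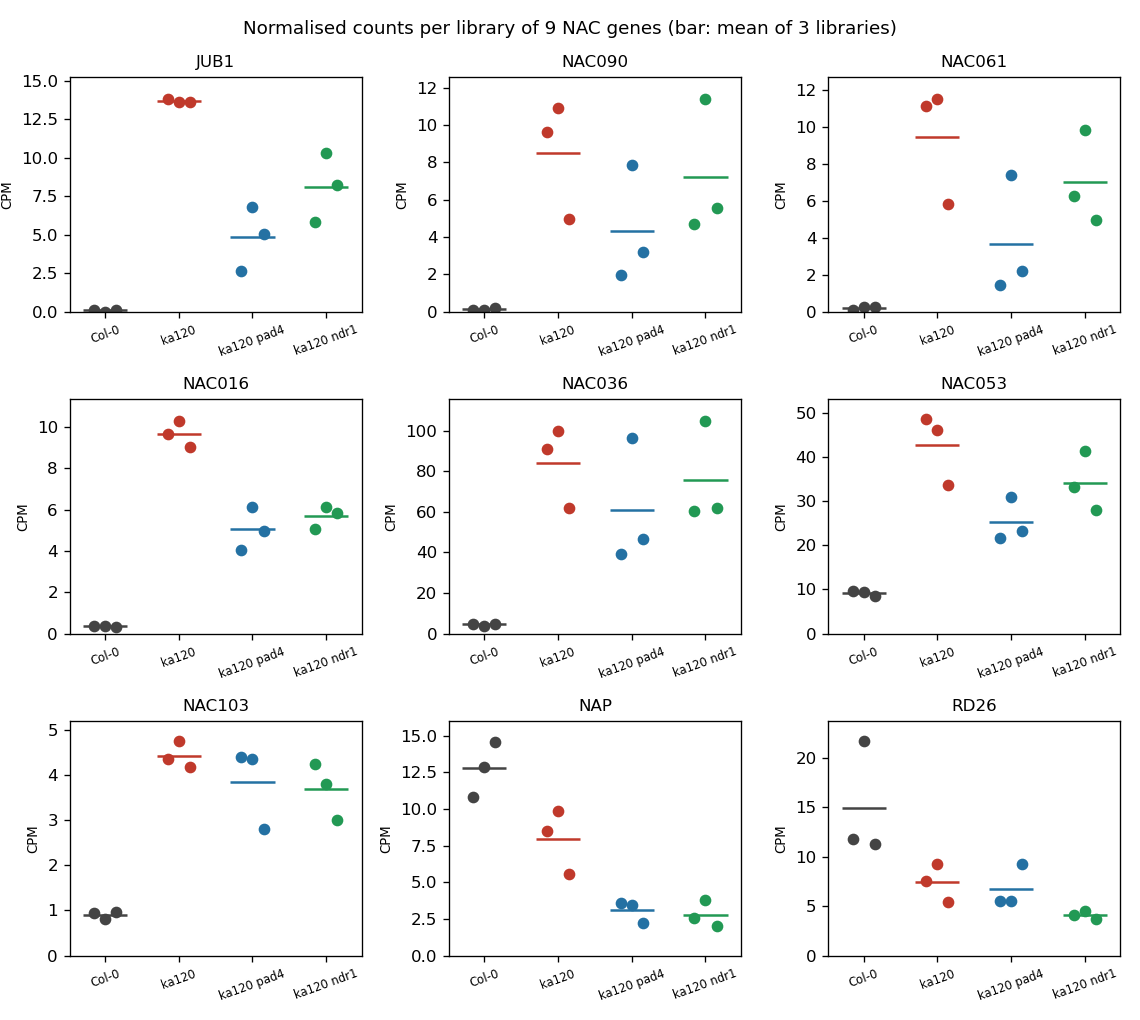
CPM of 9 NAC genes in each library, by genotype, with a bar at the mean of 3 libraries and an axis of its own for each gene. JUB1, NAC090, NAC061, NAC016, NAC036, NAC053 and NAC103 sit higher in every mutant library than in Col-0, and NAP sits lower; RD26 also sits lower, with Col-0 replicate 2 at 21.7 CPM.

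In the senescence group, 5 of 8 members were higher (62.5%, against 28.0% of all genes) and 1 was lower (12.5%, against 27.0%) in ka120. JUB1 (AT2G43000), which prolongs leaf life and raises tolerance of hydrogen peroxide, stood at 0.13, 0 and 0.128 CPM in Col-0 (8, 0 and 9 counts), at 13.8, 13.6 and 13.6 in ka120, at 2.64, 6.77 and 5.01 in ka120 pad4 and at 5.81, 10.3 and 8.21 in ka120 ndr1. No 2 genotypes overlapped, except for the double mutants with each other. JUB1 rose in ka120 by a log2 fold change of 7.24 ± 0.52 (adjusted p = 3.11e-07). In ka120 pad4 it was lower than in ka120, at -1.51 ± 0.33 (adjusted p = 0.00937), and in ka120 ndr1 the value was -0.76 ± 0.33 (adjusted p = 0.185). The call in ka120 pad4 was lost with limma on the authors' deposited log2 values (-1.61, adjusted p = 0.211).

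NAC046 and NAC047 are neighbours on chromosome 3, separated by 6103 bases. NAC046 promotes senescence and chlorophyll breakdown, and NAC047 promotes the upward leaf movement seen in waterlogged plants. NAC046 (AT3G04060) stood at 0.537, 0.809 and 0.624 CPM in Col-0, at 4.97, 4.97 and 3.34 in ka120, at 2.5, 3.41 and 2.44 in ka120 pad4 and at 3.22, 3.05 and 2.5 in ka120 ndr1. NAC047 (AT3G04070) stood at 0.456, 0.674 and 0.312 CPM in Col-0, at 4.45, 4.92 and 3.07 in ka120, at 1.67, 3.81 and 2.91 in ka120 pad4 and at 1.17, 1.3 and 1.53 in ka120 ndr1. NAC087 (AT5G18270), which acts with NAC046 in programmed cell death of the root cap, stood at 1.59, 1.79 and 0.851 CPM in Col-0, at 8.68, 11.8 and 7.1 in ka120, at 3.48, 6.85 and 5.33 in ka120 pad4 and at 5.9, 9.38 and 6.66 in ka120 ndr1. All mutant libraries lay above all Col-0 libraries for each of the 3 genes.

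The log2 fold change in ka120 was 2.75 ± 0.24 for NAC046 (adjusted p = 1.43e-06), 3.12 ± 0.35 for NAC047 (adjusted p = 1.21e-05) and 2.71 ± 0.33 for NAC087 (adjusted p = 1.92e-05). NAC047 was lower in ka120 ndr1 than in ka120, at -1.63 ± 0.32 (adjusted p = 0.0168). In ka120 pad4 it differed from ka120 by -0.57 ± 0.31 (adjusted p = 0.242). The direct comparison of the double mutants gave 1.07 ± 0.32 for ka120 pad4 over ka120 ndr1 (adjusted p = 0.103), so a difference between them was not shown for NAC047. NAC046 was lower in ka120 pad4 than in ka120, at -0.67 ± 0.21 (adjusted p = 0.0485). Leaving out either replicate 1 or 3 of ka120 pad4, or replicate 1 or 2 of ka120, moved that adjusted p to 0.149 to 0.175. The NAC047 call in ka120 ndr1 was lost without either replicate 1 or 2 of ka120 ndr1, or replicate 1 or 2 of ka120 (adjusted p from 0.0542 to 0.0832).

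NAP moved the other way. It is an activator of senescence that switches on abscisic acid synthesis and chlorophyll breakdown. NAP (AT1G69490) stood at 10.8, 12.9 and 14.6 CPM in Col-0, at 8.48, 9.86 and 5.57 in ka120, at 3.6, 3.43 and 2.24 in ka120 pad4 and at 2.55, 3.8 and 1.98 in ka120 ndr1. The 3 levels formed steps with no overlap between Col-0, ka120 and the double mutants, while both double mutants overlapped each other. NAP fell by 0.68 ± 0.26 on the log2 scale in ka120 (adjusted p = 0.0404), a call that was lost without Col-0 replicate 2 or 3 or ka120 replicate 1 or 3 (adjusted p from 0.0736 to 0.15). Against ka120 it was lower again in ka120 pad4 (-1.37 ± 0.27, adjusted p = 0.00535). In ka120 ndr1 the value was -1.53 ± 0.27 (adjusted p = 0.0123), and leaving out replicate 1 of ka120 ndr1, or replicate 1 or 2 of ka120, gave adjusted p-values of 0.0559 to 0.0639.

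VNI2, which restrains both vessel formation and leaf ageing, rose, with 113 ± 2.9 CPM in Col-0 against 190 ± 2.83 in ka120 (log2 0.75 ± 0.05, adjusted p = 3.18e-07). ORE1, a central activator of age-dependent senescence, had 12.6 ± 1.87 CPM in Col-0 against 11 ± 1.95 in ka120 (log2 -0.21 ± 0.15, adjusted p = 0.272). ORE1 was lower than Col-0 in ka120 ndr1, at 7.82 ± 0.237 CPM (log2 -0.69 ± 0.15, adjusted p = 0.0025). It was also called lower than Col-0 in ka120 pad4, at 9.39 ± 1.4 CPM. That call was lost without Col-0 replicate 2 or 3 or ka120 pad4 replicate 2 or 3 (adjusted p from 0.0504 to 0.154). For its relative ORS1 the log2 fold change in ka120 was 0.18 ± 0.28 (adjusted p = 0.602).

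All 5 members of the mitochondrial and proteotoxic stress group rose in ka120 (100%, against 28.0% of all genes). The 5 include NAC016, for which the role given below is in senescence. NAC017 and NAC013 sit in the endoplasmic reticulum membrane and carry the signal of mitochondrial dysfunction to the nucleus, and NAC053 and NAC078 activate proteasome genes when the proteasome fails. NAC016 (AT1G34180), which promotes senescence, stood at 0.358, 0.354 and 0.326 CPM in Col-0, at 9.67, 10.3 and 9.02 in ka120, at 4.05, 6.14 and 4.98 in ka120 pad4 and at 5.06, 6.14 and 5.85 in ka120 ndr1. NAC053 (AT3G10500) stood at 9.57, 9.42 and 8.56 CPM in Col-0, at 48.5, 46.1 and 33.6 in ka120, at 21.6, 30.9 and 23.1 in ka120 pad4 and at 33.1, 41.2 and 28 in ka120 ndr1. For NAC016 both double mutants lay between Col-0 and ka120 without overlapping either. For NAC053 this was so of ka120 pad4, and ka120 ndr1 overlapped ka120.

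NAC016 had a log2 fold change of 4.80 ± 0.19 in ka120 (adjusted p = 9.76e-09), the lowest adjusted p of any member in this comparison. It was lower than in ka120 in ka120 pad4 (-0.93 ± 0.15, adjusted p = 0.00218) and in ka120 ndr1 (-0.76 ± 0.15, adjusted p = 0.0154). The ka120 ndr1 call was lost without replicate 1 of ka120 ndr1, or replicate 1 or 2 of ka120 (adjusted p from 0.0653 to 0.0818). NAC053 rose by 2.22 ± 0.18 in ka120 (adjusted p = 8.89e-07) and was lower in ka120 pad4 than in ka120 (-0.76 ± 0.17, adjusted p = 0.0102).

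NAC078, NAC013 and NAC017 rose by less, with log2 fold changes of 0.93 ± 0.06, 0.87 ± 0.08 and 0.76 ± 0.07 in ka120. NAC017 (-0.34 ± 0.07, adjusted p = 0.0061) and NAC078 (-0.21 ± 0.06, adjusted p = 0.0235) were lower in ka120 pad4 than in ka120, the NAC078 call being lost without either replicate 1 or 2 of ka120 pad4, or replicate 1 or 2 of ka120 (adjusted p from 0.052 to 0.0945). NAC013 differed from ka120 by -0.04 ± 0.07 in ka120 pad4 and -0.09 ± 0.07 in ka120 ndr1, neither called. NAC016 and NAC017 lie 117 bases apart on chromosome 1 on the same strand, and NAC053 lies 14 bases from NAC052 on chromosome 3, whose log2 fold change in ka120 was 0.26 ± 0.08 (adjusted p = 0.0202, lost without Col-0 replicate 1, ka120 replicate 2 or ka120 replicate 3).

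Of the 3 members that act in endoplasmic reticulum stress, 2 rose in ka120 (66.7%, against 28.0% of all genes). NAC103 (AT5G64060), a target of the unfolded protein response factor bZIP60, stood at 0.944, 0.809 and 0.964 CPM in Col-0, at 4.37, 4.76 and 4.18 in ka120, at 4.4, 4.36 and 2.8 in ka120 pad4 and at 4.26, 3.82 and 3 in ka120 ndr1. NAC062 (AT3G49530), a membrane-held factor that is released in the cold and in endoplasmic reticulum stress, stood at 12.2, 13.6 and 14.8 CPM in Col-0, at 33.8, 36.2 and 26.8 in ka120, at 20.6, 29.6 and 26.5 in ka120 pad4 and at 26.1, 32.8 and 25.6 in ka120 ndr1. The mutant libraries of both genes lay above Col-0, and the double mutants overlapped ka120. The log2 fold change in ka120 was 2.29 ± 0.21 for NAC103 (adjusted p = 2.16e-06) and 1.25 ± 0.15 for NAC062 (adjusted p = 2.27e-05). NAC089, a tethered regulator of cell death in this stress, had a value of 0.26 ± 0.14 (adjusted p = 0.145).

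In the ATAF subfamily of stress-responsive factors, 1 of 4 rose (25%), a share near the 28.0% of all genes. ATAF2 (AT5G08790), which represses pathogenesis-related genes, stood at 20.4, 20.5 and 18.3 CPM in Col-0, at 58.5, 64 and 45.2 in ka120, at 43.4, 61.6 and 49.1 in ka120 pad4 and at 45.5, 58.2 and 43.2 in ka120 ndr1. Its mutant groups overlapped each other and lay above Col-0. ATAF2 had a log2 fold change of 1.5 ± 0.16 in ka120 (adjusted p = 6.38e-06), and its values against ka120 were -0.12 ± 0.15 in ka120 pad4 and -0.19 ± 0.15 in ka120 ndr1, neither called. ATAF1, NAC032 and NAC102 had log2 fold changes of 0.25 ± 0.13, -0.07 ± 0.20 and 0.16 ± 0.09 in ka120, none called. The NAC102 locus overlaps SHA1 on the opposite strand by 85 bases.

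The abscisic acid and jasmonate group held 2 of the 6 lower calls, from 3 tested members (66.7%, against 27.0% of all genes). NAC096, which binds abscisic acid response factors, is counted in the growth group and rose in ka120 (log2 1.22). RD26 (NAC072), NAC019 and NAC055 repress the salicylic acid synthesis gene ICS1 and activate the methyltransferase gene BSMT1 when the bacterial toxin coronatine is present. RD26 (AT4G27410) stood at 11.8, 21.7 and 11.3 CPM in Col-0, at 7.5, 9.28 and 5.43 in ka120, at 5.5, 5.57 and 9.26 in ka120 pad4 and at 4.12, 4.53 and 3.73 in ka120 ndr1. Col-0 replicate 2 stood well above the other Col-0 libraries, and all Col-0 libraries lay above all mutant libraries. RD26 fell by 1.01 ± 0.28 in ka120 (log2, adjusted p = 0.00827). Its value in ka120 ndr1 against ka120 was -0.84 ± 0.28, with no overlap but no call (adjusted p = 0.0964).

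NAC055 also fell in ka120, by 1.21 ± 0.48 (log2, adjusted p = 0.0474), from 0.948 ± 0.54 to 0.407 ± 0.172 CPM with overlapping libraries. The call was lost without Col-0 replicate 1 or 2 or ka120 replicate 1 or 3, and without Col-0 replicate 2 the value was -0.66 (adjusted p = 0.277). Its neighbour NAC056, on the same strand 7235 bases away, rose by 0.86 ± 0.21 (adjusted p = 0.00411). NAC019 had a log2 fold change of 0.54 ± 0.47 (adjusted p = 0.357). ICS1 rose in ka120, from 13.3 ± 0.427 to 112 ± 20.6 CPM (log2 3.08 ± 0.31, adjusted p = 4.73e-06), while BSMT1 had 0 to 0.916 CPM per library and was not called (adjusted p = 0.161). Of the 3 listed salicylic acid genes, ICS1 was the 1 called (33.3%, against 54.9% of all genes called in either direction).

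None of the 8 vascular and cell wall members rose in ka120, against 28.0% of all genes. In this group 3 fell (37.5%, against 27.0% of all genes), and the median log2 fold change was -0.44. NAC045 (AT3G03200), which acts with NAC086 in the clearing of the nucleus from sieve elements, stood at 4.52, 5.46 and 3.8 CPM in Col-0, at 1.81, 1.7 and 1.86 in ka120, at 4.59, 3.82 and 4 in ka120 pad4 and at 3.2, 2.15 and 2.5 in ka120 ndr1. The ka120 libraries lay below all others, and ka120 pad4 overlapped Col-0. NAC045 fell by 1.36 ± 0.18 in ka120 (log2, adjusted p = 5.19e-05). It was the 1 member higher in ka120 pad4 than in ka120 (1.21 ± 0.18, adjusted p = 0.00189), and its value in ka120 ndr1 was 0.55 ± 0.18 (adjusted p = 0.0955).

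The NAC045 locus shares 1096 bases with the glutathione transferase gene GSTF11 on the opposite strand. GSTF11 had log2 fold changes of -1.35 ± 0.19 in ka120 over Col-0 (adjusted p = 7.31e-05), 1.45 ± 0.19 in ka120 pad4 over ka120 (adjusted p = 0.00114) and 0.82 ± 0.19 in ka120 ndr1 over ka120 (adjusted p = 0.0301). GSTF11 had 20.4 CPM in Col-0, more than NAC045. The libraries were strand-specific, but with the strand setting of the counting not given in the sources used here, reads of both genes cannot be told apart.

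XND1 (AT5G64530), which represses xylem vessel formation, stood at 3.09, 2.85 and 2.84 CPM in Col-0, at 4.06, 4.49 and 2.94 in ka120, at 2.14, 2.03 and 2.07 in ka120 pad4 and at 1.75, 1.87 and 1.81 in ka120 ndr1. Both double mutants lay below Col-0 and ka120. XND1 was not called in ka120 (0.39 ± 0.17, adjusted p = 0.064), and was lower than in ka120 in ka120 pad4 (-0.88 ± 0.17, adjusted p = 0.00483) and in ka120 ndr1 (-1.08 ± 0.17, adjusted p = 0.00799). SND2, an activator of secondary wall genes, fell by 0.78 ± 0.31 in ka120 (adjusted p = 0.0499), and NAC057 fell by 0.71 ± 0.28 (adjusted p = 0.0479). Both calls were lost without any 1 of 5 libraries, which were Col-0 replicates 1, 2 and 3 and ka120 replicates 1 and 3.

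The 4 remaining vascular members were not called in ka120, with log2 fold changes from -1.25 for NAC020 to 0.41 for NAC075. Markers of vascular cells were lower beside them. All 5 xylem and secondary wall markers were lower in ka120 (100%, against 27.0% of all genes), at log2 fold changes of -0.75 to -0.44. They summed to 114 to 124 CPM in Col-0 and 73.9 to 90.4 in ka120. The phloem marker SUC2 fell by 1.00 ± 0.08 (adjusted p = 7.93e-07), and the phloem list summed to 248 to 291 CPM in Col-0 and 124 to 143 in ka120. In such bulk samples, fewer cells of a type and less RNA per cell cannot be told apart. The part of these markers in the NAC045, SND2 and NAC057 values was not tested.

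Of 4 tested members that are linked to virus resistance or tethered to membranes, 2 rose in ka120 (50%, against 28.0% of all genes). NAC001 (AT1G01010) stood at 3.09, 4.01 and 2.84 CPM in Col-0, at 13.8, 12.5 and 8.44 in ka120, at 7.04, 11 and 8.3 in ka120 pad4 and at 8.91, 10.4 and 8.4 in ka120 ndr1. Its mutant groups lay above Col-0 and overlapped each other. The log2 fold change in ka120 was 1.81 ± 0.21 (adjusted p = 1.74e-05). TIP, which binds the coat protein of turnip crinkle virus, rose by 0.57 ± 0.11 (adjusted p = 0.000908). NAC014 and NAC069 had log2 fold changes of -0.01 ± 0.09 and 0.04 ± 0.14, and NAC060 was not tested.

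In the growth, flowering and reproduction group, 8 of 11 rose in ka120 (72.7%, against 28.0% of all genes). NAC1 (AT1G56010), which carries auxin signals to lateral root formation, stood at 1.17, 2.39 and 1.47 CPM in Col-0, at 5.78, 5 and 3.27 in ka120, at 2.92, 2.77 and 2.99 in ka120 pad4 and at 2.5, 3.19 and 4.41 in ka120 ndr1. NAC044 (AT3G01600), which with NAC085 stops the cell cycle after DNA damage, stood at 1.69, 1.15 and 2.68 CPM in Col-0, at 3.99, 4.38 and 3.83 in ka120, at 2.77, 2.8 and 1.54 in ka120 pad4 and at 3.37, 1.86 and 1.62 in ka120 ndr1. NAC096 (AT5G46590), which binds abscisic acid response factors, stood at 0.976, 0.641 and 0.992 CPM in Col-0, at 2.23, 2.04 and 1.84 in ka120, at 1.38, 1.56 and 1.4 in ka120 pad4 and at 1.21, 1.27 and 2.32 in ka120 ndr1. In ka120 all 3 genes lay above Col-0 without overlap, and in the double mutants NAC044 overlapped Col-0.

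The log2 fold change in ka120 was 1.48 ± 0.29 for NAC1 (adjusted p = 0.000953), 1.14 ± 0.34 for NAC044 (adjusted p = 0.014) and 1.22 ± 0.28 for NAC096 (adjusted p = 0.0026). The NAC044 value without Col-0 replicate 2 was 0.89 (adjusted p = 0.0557). NAC1 overlaps AT1G56000 by 148 bases and a long non-coding RNA by 809 bases on the opposite strand, and AT1G56000 fell by 1.25 ± 0.12 on the log2 scale. NAC080, NAC056, NAM and NAC052 rose by 0.97, 0.86, 0.83 and 0.26, the NAC080 call being lost without Col-0 replicate 1 (adjusted p = 0.0508). NAC100, NAC050 and LOV1 had values of 0.23, 0.07 and -0.06 and were not called. NAC071, which acts in tissue rejoining after stem cutting, is counted among these 8 but passed the filter only with the ka120 libraries. It had 0 counts in every Col-0 library and 9, 15 and 12 in ka120, at least 2.83-fold higher against a floor of 3 counts per Col-0 library.

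Among the members with no assigned role, 4 of 6 tested rose in ka120 (66.7%, against 28.0% of all genes). NAC003 and NAC004 are neighbours on chromosome 1, separated by 4244 bases. NAC003 (AT1G02220) stood at 1.99, 2.31 and 1.35 CPM in Col-0, at 6.75, 7.41 and 5.44 in ka120, at 2.07, 4.12 and 2.91 in ka120 pad4 and at 3.48, 5.99 and 4.15 in ka120 ndr1. NAC004 (AT1G02230) stood at 0.13, 0 and 0.0709 CPM in Col-0, at 3.15, 2.45 and 1.2 in ka120, at 0.332, 2.26 and 0.809 in ka120 pad4 and at 1.46, 3.34 and 1.52 in ka120 ndr1. For NAC004 every mutant library lay above Col-0, and for NAC003 ka120 pad4 overlapped Col-0 and lay below ka120.

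NAC003 had a log2 fold change of 1.80 ± 0.29 in ka120 (adjusted p = 0.000186) and NAC004 of 5.03 ± 0.87 (adjusted p = 0.000374). NAC003 was lower in ka120 pad4 than in ka120 (-1.11 ± 0.28, adjusted p = 0.0165), with adjusted p-values of 0.054 to 0.0686 without either replicate 1 or 3 of ka120 pad4, or replicate 1 or 2 of ka120. NAC005, next to NAC004, had 0 counts in Col-0 and 12, 4 and 4 in ka120 and was not called. NAC038, counted among the 4, passed the filter only with the ka120 libraries, at 0 counts in Col-0 and 17, 26 and 14 in ka120, at least 4.48-fold higher against the same floor. NAC041 rose by 0.65 ± 0.14 (adjusted p = 0.00229), and NAC084 had a value of 0.41 ± 0.39 (adjusted p = 0.403).

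The mean summed level of the members in the double mutants lay between Col-0 and ka120. The ka120 ndr1 libraries (923 to 1070 CPM) overlapped ka120 (1020 to 1160 CPM). Single members such as NAP and XND1 lay below both Col-0 and ka120 in the double mutants. Against ka120, 11 of 56 members (19.6%) were called in ka120 pad4, beside 18.2% of all genes. Of these, 10 were lower (17.9%, against 8.39% of all genes) and 1 was higher (1.79%, against 9.83%). They were JUB1, NAP, NAC046 and VNI2 of the senescence group, NAC016, NAC053, NAC017 and NAC078 of the mitochondrial and proteotoxic group, NAC003 and XND1, with NAC045 as the higher one. VNI2 had a value of -0.32 ± 0.05 (adjusted p = 0.00274). A change of at least 2-fold was called for 4 members and 2.96% of all genes. The libraries did not overlap for 18 members with lower values in ka120 pad4 (background 16.3%) and 2 with higher values (17.0%). The median over members was -0.23, against 0 over all genes. None of the 4 negative regulators, the 3 endoplasmic reticulum stress members, the 4 ATAF members or the 11 growth members was called.

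In ka120 ndr1, 4 of 56 members (7.14%) were called against ka120, beside 5.94% of all genes. All 4 were lower (against 2.74% of all genes): NAC047, NAP, XND1 and NAC016. The libraries did not overlap for 18 members with lower values in ka120 ndr1 (background 14.5%) and 1 with a higher value (14.9%). The median over members was -0.26, against 0 over all genes. The count was 11 with DESeq2 and 7 with only the libraries of both groups in the fit. It was 1 without replicate 1 of ka120 ndr1, or replicate 1 or 2 of ka120, and 8 without ka120 replicate 3. Shares over all genes were not counted for these alternatives.

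**Figure D3:**
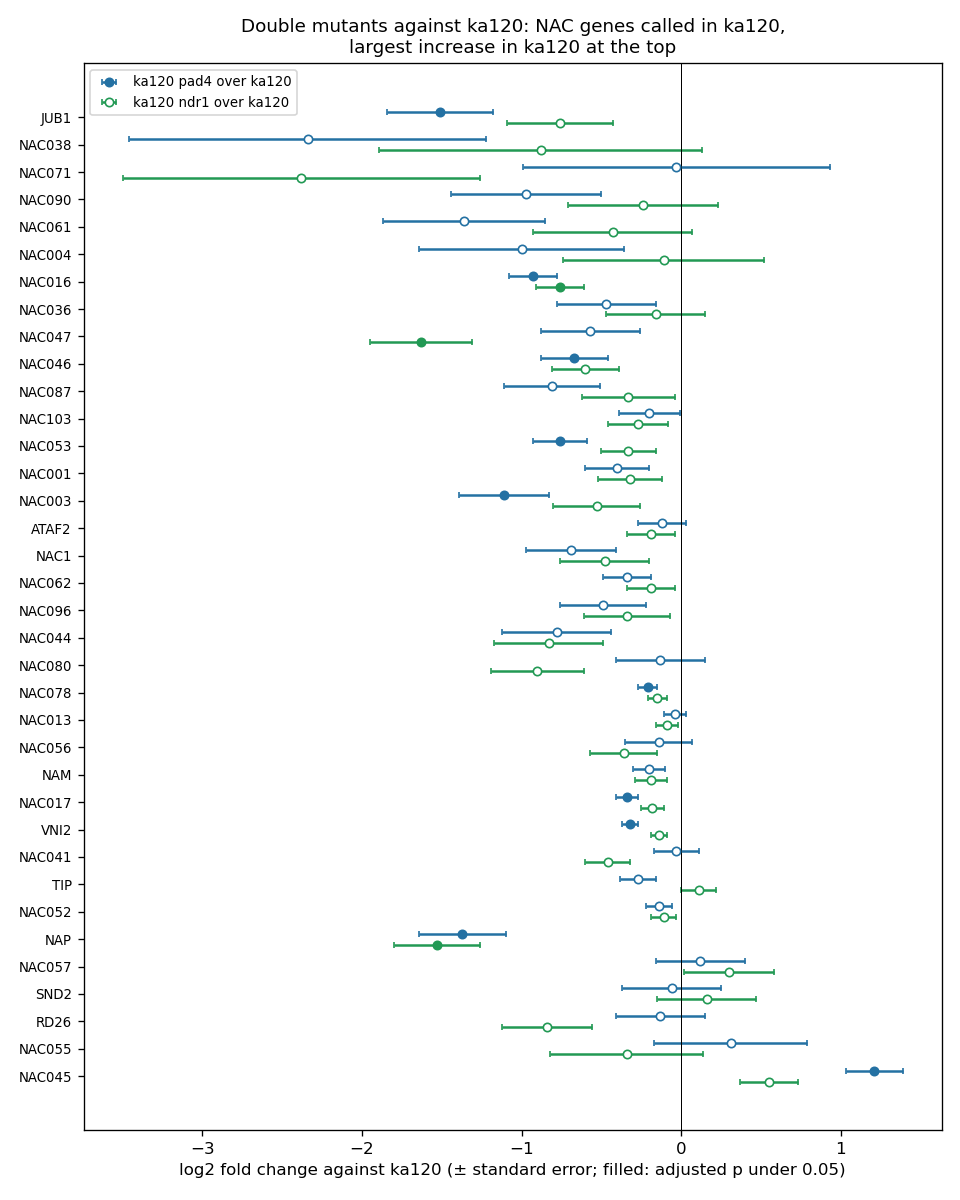
Log2 fold change against ka120 in ka120 pad4 (blue) and ka120 ndr1 (green) of the 36 NAC genes called between ka120 and Col-0, ordered by their change in ka120, with the standard error as the bar. Filled points passed an adjusted p of 0.05, and both comparisons share the ka120 libraries. Most points lie left of 0, with NAC045 at 1.21 the filled point on the right. Of the 36 genes, 30 were chosen as higher in these same ka120 libraries, so a lean to the left can come in part from that choice.

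Both double mutants still differed from Col-0, in 30 of 56 members for ka120 pad4 (53.6%, beside 42.0% of all genes) and 32 for ka120 ndr1 (57.1%, beside 48.4%). In ka120 pad4, 25 members were higher (44.6%, against 21.6% of all genes) and 5 were lower (8.93%, against 20.3%). In ka120 ndr1, 25 were higher (44.6%, against 24.9%) and 7 were lower (12.5%, against 23.5%). The higher counts include NAC071 in ka120 pad4, and NAC005 and NAC038 in ka120 ndr1. These had 0 counts in every Col-0 library and passed the filter through mutant libraries, so they could only come out higher and lend the counts no support. Each of these calls was also lost in fits with a single library left out. JUB1 and NAC004, higher in both double mutants, also had no Col-0 library at the filter's cutoff and passed it through mutant libraries. The comparisons with Col-0 share the Col-0 libraries. The 5 lower calls in ka120 pad4 became 3 without Col-0 replicate 1 or ka120 pad4 replicate 1, and 2 without any other single Col-0 or ka120 pad4 library. JUB1 stayed far above Col-0 in both, with log2 fold changes of 5.74 ± 0.52 in ka120 pad4 (adjusted p = 5.14e-06) and 6.49 ± 0.52 in ka120 ndr1 (adjusted p = 1.33e-06). NAP was lower than in Col-0, at log2 values of -2.05 ± 0.27 in ka120 pad4 (adjusted p = 8.56e-05) and -2.20 ± 0.27 in ka120 ndr1 (adjusted p = 3.55e-05). RD26 was lower too, at -1.14 ± 0.28 in ka120 pad4 (adjusted p = 0.0061) and -1.86 ± 0.29 in ka120 ndr1 (adjusted p = 0.000206). NAC044 was not called against Col-0 in either (0.36 ± 0.35 and 0.31 ± 0.35).

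Set directly against each other, the double mutants differed in 0 of 56 members in edgeR's test, beside 2.39% of all genes (1.51% higher and 0.886% lower). The libraries did not overlap for 7 members with higher values in ka120 pad4 (background 11.6%) and 3 with lower values (10.2%). At an unadjusted p below 0.05 there were 13 of 56 members, 6 higher and 7 lower in ka120 pad4, beside 4012 of 22351 genes. DESeq2 called 2 members higher and 2 lower, with the share over all genes not counted. Leaving out ka120 pad4 replicate 1 gave 2 higher, and leaving out ka120 pad4 replicate 2 gave 2 lower. A p above the threshold does not show that the double mutants are alike. The largest value with counts above 1 CPM was 1.07 ± 0.32 for NAC047, and NAC045 was at 0.66 ± 0.18 (adjusted p = 0.0765), with no overlap between the groups for either gene.

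Genes known to act above or below these factors were counted from lists. In the mitochondrial dysfunction stimulon, the set of genes that NAC013 and NAC017 activate, 8 of 8 rose in ka120 (100%, against 28.0% of all genes). The median was 2.51, and the list summed to 36.6 to 48.5 CPM in Col-0 and 134 to 155 in ka120. OM66, an ATPase of the outer mitochondrial membrane, stood at 2.05, 2.6 and 2.75 CPM in Col-0 and at 62.2, 63 and 39.6 in ka120 (log2 4.47 ± 0.32, adjusted p = 3.3e-07). NDB4, an external NADH dehydrogenase, had 5, 0 and 0 counts in Col-0 and 16, 17 and 28 in ka120 (3.04 ± 1.19, adjusted p = 0.0468). That call was lost without the filter on low counts and without any of 5 single libraries (adjusted p from 0.0528 to 0.138). All Col-0 libraries of NDB4 lay below the filter's cutoff of 0.133 CPM, so it passed through mutant libraries. In ka120 pad4 against ka120, 3 stimulon genes were called in opposite directions, and they are named here after their values were seen. Of the list, 25% were higher (against 9.83% of all genes) and 12.5% were lower (against 8.39%). In the same comparison 6 of the 8 values lay above 0, at a median of 0.79, against 0 over all genes. UPOX (0.98 ± 0.16, adjusted p = 0.00219) and AT5G51440 (1.03 ± 0.21, adjusted p = 0.00625) were higher, whereas OM66 was lower (-0.97 ± 0.27, adjusted p = 0.0274, lost without any of 4 single libraries). In ka120 ndr1, UPOX (0.67 ± 0.15, adjusted p = 0.0308) and AT5G51440 (1.01 ± 0.21, adjusted p = 0.02) were again the ones called. They made up 25% of the list, against 3.20% of all genes higher, and both calls were lost without ka120 replicate 1 or 2. NAC016, NAC017, NAC053 and NAC078 were lower than in ka120 in the ka120 pad4 libraries in which UPOX and AT5G51440 were higher. NAC013 was not called there, at a log2 value of -0.04.

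Of the 8 regulators and targets of the unfolded protein response, 7 rose in ka120 (87.5%, against 28.0% of all genes), at a median of 1.5. The list summed to 312 to 328 CPM in Col-0 and 1260 to 1630 in ka120. BIP3, a chaperone of the endoplasmic reticulum, stood at 0.83, 0.691 and 1.12 CPM in Col-0, at 220, 198 and 149 in ka120, at 32.5, 128 and 54.1 in ka120 pad4 and at 143, 167 and 140 in ka120 ndr1. The protein disulfide isomerase gene PDIL1-1 stood at 50.5, 48.6 and 54.6 CPM in Col-0 and at 356, 378 and 269 in ka120. Their log2 fold changes in ka120 were 7.73 ± 0.51 (adjusted p = 1.88e-07) and 2.71 ± 0.23 (adjusted p = 1.22e-06). In ka120 pad4, 6 of the 8 were lower than in ka120 (75%, against 8.39% of all genes), at a median of -0.52. NAC103 and NAC062 were not called in the same comparison. BIP3 in ka120 pad4 was at -1.40 ± 0.37 (adjusted p = 0.0199), and the call was lost without replicate 3 of ka120 pad4, or replicate 1 or 2 of ka120 (adjusted p from 0.0638 to 0.0832).

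The listed chlorophyll breakdown and senescence genes linked to NAP, ORE1 and NAC046 moved in both directions, at shares near the background. The list also holds the regulator genes GPRI1 and GLK2, so not all of it are targets. In ka120, 3 of 11 tested rose (27.3%, against 28.0% of all genes) and 4 fell (36.4%, against 27.0%), at a median of 0.02, and SAG12, the gene most used as a marker of late senescence, had 0 counts in all 12 libraries. SAG29, a sugar transporter gene of ageing leaves, stood at 4.31, 2.97 and 3.08 CPM in Col-0, at 0.282, 0.511 and 0.954 in ka120, at 1.27, 1.89 and 1.26 in ka120 pad4 and at 0.338, 0.194 and 0.443 in ka120 ndr1. NOL, a subunit of chlorophyll b reductase, stood at 35, 41.1 and 35.2 CPM in Col-0 and at 7.05, 8.86 and 8.83 in ka120. SAG29 fell by 2.56 ± 0.41 (adjusted p = 0.000193) and NOL by 2.17 ± 0.14 (adjusted p = 1.47e-07) on the log2 scale.

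Among ethylene regulators of ORE1, EIN3 (0.43 ± 0.07, adjusted p = 0.000192) and EIL1 (0.21 ± 0.07, adjusted p = 0.0151, lost without Col-0 replicate 1) rose and EIN2 was not called. In the RCD1 and SRO family, whose member RCD1 binds and restrains NAC013 and NAC017, 2 of 5 tested rose (40%, against 28.0% of all genes). SRO3 stood at 0.0651, 0.0674 and 0.128 CPM in Col-0 and at 0.658, 0.639 and 0.75 in ka120 (2.94 ± 0.52, adjusted p = 0.000443). Its Col-0 libraries all lay below the filter's cutoff of 0.133 CPM, so SRO3 passed through mutant libraries. RCD1 rose by 0.32 ± 0.08 (adjusted p = 0.00646), from 154 ± 12.8 to 192 ± 20.1 CPM.

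Among 26 further NAC loci, outside the 58 and counted for comparison, 20 were tested. In ka120, 4 of these were higher (20%, against 28.0% of all genes) and 1 was lower (5%, against 27.0%), at a median of -0.01. NAC085, the partner of NAC044, stood at 0, 0.185 and 0.113 CPM in Col-0, at 9.89, 13.4 and 7.41 in ka120, at 2.61, 7.38 and 3.88 in ka120 pad4 and at 7.86, 8.59 and 7.25 in ka120 ndr1. NAC085 had a log2 fold change of 6.66 ± 0.57 in ka120 (adjusted p = 1.32e-06). NTL8, which represses flowering under salt stress, fell by 2.60 ± 0.48 on the log2 scale, from 0.694 ± 0.0638 to 0.114 ± 0.0432 CPM (adjusted p = 0.000576). The other three called were NTM1 (2.28 ± 0.28), SOG1 (1.13 ± 0.13), which switches on NAC044 and NAC085 after DNA damage, and NTL9 (0.63 ± 0.07).

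**Figure D4:**
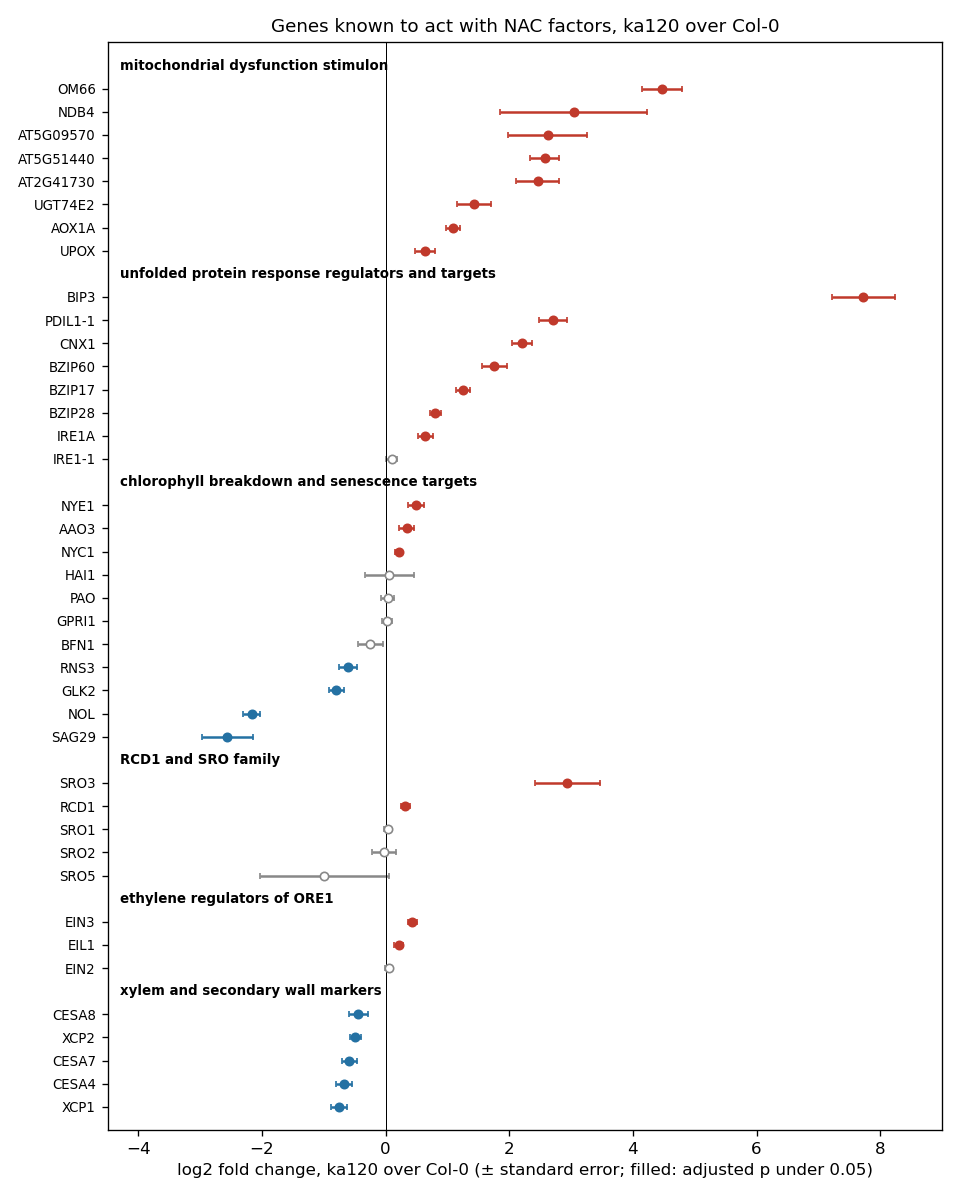
Log2 fold change in ka120 over Col-0 of genes known to act with NAC factors and of xylem markers, with the standard error as the bar; filled points passed an adjusted p of 0.05. All 8 stimulon genes and all 8 unfolded protein response genes lie right of 0, 7 of the latter filled. All 5 xylem markers lie left of 0, and the chlorophyll breakdown and senescence genes lie on both sides.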

How the data were processed

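Strand-specific mRNA libraries were made from total RNA of about 50 mg of rosette leaves, per the labels' protocols. The submitters' processing notes name HISAT2 2.0.4, HTSeq 0.6.1p1 and the TAIR10 genome. How each tool was run, any batches and the strand setting of counting stay not given in the sources used here. For 34262 genes the deposited table holds whole numbers, treated here as estimated counts per gene. Between 45.7% and 48.1% of a library's values of 4 to 40 divided evenly by 4, so precision may be lower than the totals imply. A table of log2 values deposited by the authors covers 22605 genes. These equal log2 of the count plus 0.5 minus a constant per library to within 5e-09. They served as an alternative.

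Counts were tested in R 4.3.3 with edgeR 4.0.16 (TMM, filterByExpr, glmQLFit and glmQLFTest), with 1 coefficient per genotype over all 12 libraries, 8 residual degrees of freedom and Benjamini-Hochberg adjustment over 22351 genes. The SE of a log2 fold change is its size divided by the square root of F. Levels are CPM of effective library size, and between genes CPM per kb of exon. The scripts were tested on simulated data. Alternatives used limma 3.58.1, DESeq2 1.42.0, other size factors, no filter, counts divided by 4, only both groups compared, a replicate block, and 1 library left out at a time.

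The members, role groups and gene lists were chosen with earlier results of these data known. Members with a call, an absolute log2 fold change of 1 or more and 1 CPM or more as the higher mean, in any of the 6 comparisons, are given in every library. From each list of partner genes, the 2 called genes with the largest change are named, and other names were added after their values were seen. Locations, promoters, microRNAs and overlaps come from the RefSeq TAIR10.1 genome and annotation.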

Additional observations from a re-analysis of the deposited data

Results flagged for a closer look

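SAG29, a sugar transporter gene among the listed senescence targets, was the one gene of the members and lists whose change against ka120 differed between the double mutants by a test of the difference itself. It was higher in ka120 pad4 than in ka120 ndr1 by 2.16 ± 0.42 on the log2 scale (SE, adjusted p = 0.0235, edgeR), at 1.47 ± 0.357 against 0.325 ± 0.125 CPM (SD, n = 3), with every ka120 pad4 library above every ka120 ndr1 library. Against ka120, at 0.582 ± 0.342 CPM, the log2 value was 1.34 ± 0.40 in ka120 pad4 (adjusted p = 0.0378, lost without any 1 of the ka120 pad4 libraries or without ka120 replicate 1 or 2) and -0.83 ± 0.43 in ka120 ndr1 (adjusted p = 0.27).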

How the results depend on the processing

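No result changed direction under any alternative. Members higher in ka120 than in Col-0 numbered 28 to 31 under the alternatives, and all 30 were shared with the main test under DESeq2 size factors, DESeq2, the unfiltered fit and the limma fit. The 6 lower became 2 without the filter on low counts and 3 with only both groups in the fit. The 4 members lower in ka120 ndr1 than in ka120 became 11 with DESeq2 and 7 with only both groups. The 5 lower in ka120 pad4 than in Col-0 became 3 with only both groups, and the double mutants against each other went from 0 and 0 to 2 higher and 2 lower with DESeq2. The cause of these shifts was not tested, and shares over all genes were not counted for the alternatives. With 1 library left out at a time, the counts of higher and lower members ran from 28 to 31 and from 2 to 6 in ka120 against Col-0, stayed at 1 and ran from 7 to 15 in ka120 pad4 against ka120, and stayed at 0 and ran from 1 to 8 in ka120 ndr1 against ka120. They ran from 21 to 24 and from 2 to 3 in ka120 pad4 against Col-0, from 21 to 25 and from 5 to 7 in ka120 ndr1 against Col-0, and from 0 to 2 and 0 to 2 between the double mutants. Of 72 calls of members named by rule, 60 held under every alternative and 12 were lost under at least 1. Of 98 other calls of members and list genes, followed after the data had been seen, 63 held and 35 were lost.

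Replicate numbers did not pair the samples: the correlations of same-numbered libraries ran from -0.05 to 0.11, with 1 of 18 over 0.1. With a replicate block, higher and lower members numbered 31 and 6 in ka120 against Col-0, 1 and 13 in ka120 pad4 against ka120, 0 and 5 in ka120 ndr1 against ka120, 25 and 4 in ka120 pad4 against Col-0, 25 and 6 in ka120 ndr1 against Col-0, and 0 and 0 between the double mutants. Of the 72 named calls, the block ended 1, NAC1 in ka120 pad4 against Col-0 (0.81, adjusted p = 0.0555, edgeR). Depth limits the members with few counts: with counts divided by 4, 53 of the 58 members were tested.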
